A study of Mus musculus with 9 samples.

Results

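The voltage-dependent anion channels (VDACs) are encoded in the mouse by 3 genes, *Vdac1*, *Vdac2* and *Vdac3*, and their transcripts were followed in left ventricular RNA from 16-week-old C57BL6J mice. These 3 members were chosen by name from the 52636 genes of the deposited count table, and all 3 passed the expression filter that kept 16322 genes for testing. The table holds 9 libraries, 5 labelled VDAC2 WT (libraries 1 to 5) and 4 labelled VDAC2 KO (libraries 6 to 9). In the study's methods, *Vdac2* flox/+ mice with αMHC-Cre, which drives recombination in cardiac myocytes, were intercrossed for a deletion in ventricular myocytes. Its results state that WT littermates carried either flox or Cre, and these may therefore share an allele with the KO. Other cells of the ventricle keep the gene in this design. The question asked was whether *Vdac1* or *Vdac3* transcripts were higher where *Vdac2* was low. For that, libraries were also set beside each other in an order defined by the measured *Vdac2* level, 4 over 300 CPM (counts per 1000000 of the normalized library size) and 4 under 100 CPM, with library 3 shown apart. That order comes from the data and not from the labels, so it is given as a description with no test, and no library was given another genotype.

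VDACs are β-barrel porins of the outer mitochondrial membrane and the main route by which ATP, ADP, metabolites and calcium cross it. VDAC1 is the prototype of the family and a docking site for hexokinase, VDAC2 holds the apoptosis effector BAK at the membrane and passes calcium released by the sarcoplasmic reticulum to the mitochondria in the heart, and VDAC3 is the least understood member, with a role in sperm motility.

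*Vdac1* (ENSMUSG00000020402) lies on chromosome 11 of GRCm38 from 52360860 to 52389397 on the plus strand. *Vdac2* (ENSMUSG00000021771) lies on chromosome 14 from 21825238 to 21845879 on the plus strand, and *Vdac3* (ENSMUSG00000008892) on chromosome 8 from 22577075 to 22593813 on the minus strand. Their longest coding transcripts have 9, 10 and 9 exons and encode 283, 295 and 284 residues. The encoded proteins are 74.2% identical between VDAC1 and VDAC2, 73.1% between VDAC2 and VDAC3 and 67.5% between VDAC1 and VDAC3. The first 72 coding bases of each transcript are shown because they hold the clearest difference between the members, a leading stretch of 12 codons in *Vdac2* that has no counterpart in the other porins. They were read from the GENCODE M21 transcripts and begin at chromosome 11 position 52374302, chromosome 14 position 21831876 and chromosome 8 position 22588792. Capitals mark that stretch in *Vdac2* and the start codon in *Vdac1* and *Vdac3*.
Vdac1: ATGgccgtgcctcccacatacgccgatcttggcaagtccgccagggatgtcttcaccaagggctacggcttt
Vdac2: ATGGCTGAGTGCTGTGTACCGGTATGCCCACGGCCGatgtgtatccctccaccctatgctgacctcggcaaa
Vdac3: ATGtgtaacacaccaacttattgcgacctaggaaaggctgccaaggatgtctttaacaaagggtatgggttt

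The transcripts of the members were different enough for the 50-base reads to be assigned to one of them. No stretch of 50 bases was shared between any pair, counted over all annotated transcripts (0 shared stretches for each of the 3 pairs). The longest identical run in the coding sequences was 17 bases between *Vdac1* and *Vdac2* (acagagaagtggaacac), 15 bases between *Vdac2* and *Vdac3* (cactcgttttggcat) and 10 bases between *Vdac1* and *Vdac3*.

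*Vdac2*, the targeted gene, did not follow the genotype labels. Libraries 1 to 5, labelled WT, gave 20.2, 366, 58.5, 365 and 21.3 CPM. Libraries 6 to 9, labelled KO, gave 384, 20.5, 421 and 19.1 CPM. Libraries 2, 4, 6 and 8 were high, libraries 1, 5, 7 and 9 were low, and library 3 lay between them. Low levels in libraries 1, 3 and 5 and high levels in libraries 6 and 8 thus went against the labels, and every direction given for KO against WT refers to the library labelled so. The lowest level above the upper threshold was 365 CPM and the highest below the lower threshold was 58.5 CPM in library 3 and 21.3 CPM in the others. In libraries 1, 5, 7 and 9, *Vdac2* stood at 5.37%, 5.68%, 5.46% and 5.09% of the median of the 4 high libraries, and in library 3 at 15.6%. Gene-level counts do not show which exons these remaining reads came from, and intact transcripts of other cells and truncated transcripts of recombined myocytes cannot be told apart here.

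The libraries held between 27345052 and 44673988 counts, and the members were counted deeply, with 10500 to 33063 counts of *Vdac1*, 614 to 14478 of *Vdac2* and 1208 to 3090 of *Vdac3*. Libraries 1 to 5 were run in lane 1 and libraries 6 to 9 in lane 2. *Xist*, the RNA of the inactive X chromosome, also followed the labels, with at most 0.152 CPM in those labelled WT and at least 335 CPM in those labelled KO. Lane, sex and label cannot be told apart, whereas each label held 2 high and 2 low libraries for *Vdac2* besides library 3. The labels do not name the animal behind a library, so the p-values measure the spread between these libraries.

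**Figure D1:**
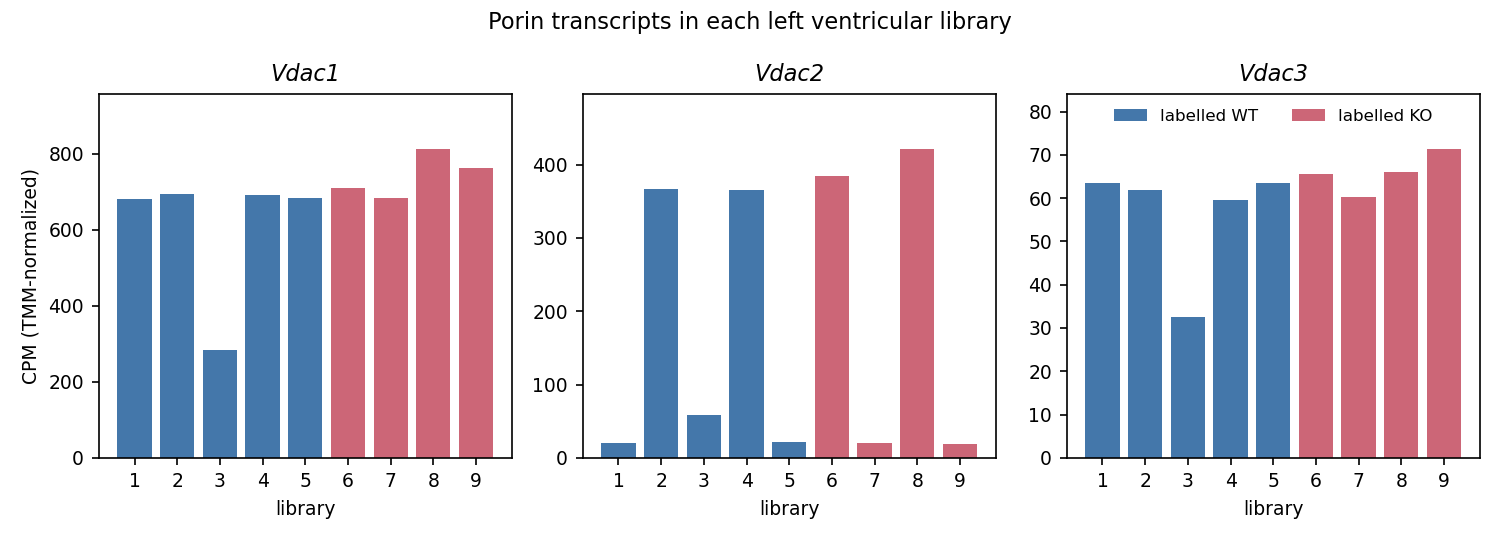
Level of each porin transcript in each library, as CPM on TMM-normalized library sizes (y axis, from 0 and with its own scale in each panel) against the library number (x axis); bars are single libraries, blue where labelled WT and red where labelled KO. *Vdac2* falls to between 19.1 and 21.3 CPM in libraries 1, 5, 7 and 9, while *Vdac1* and *Vdac3* stand apart in library 3.

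Library 3, labelled WT, stood apart from the other 8 libraries. Its summed level of 6 cardiomyocyte markers (*Myh6*, *Tnnt2*, *Tnni3*, *Actc1*, *Myl2* and *Ttn*) was 51129 CPM, against 125830 to 158400 CPM in the others. That sum was mostly *Ttn* (39927 CPM, against 83226 to 103840 CPM). All 6 were lowest in library 3 but to unlike degrees. *Myh6* was at 1746.5 CPM, against 15806 to 24713 CPM, and *Actc1* at 5371 CPM, against 6050 to 9554 CPM. Its 5 fibroblast markers summed to 3811 CPM, against 764 to 1212 CPM, and its 5 macrophage markers to 730 CPM, against 154 to 350 CPM. The fibroblast sum was mostly *Postn* (2508 CPM, against 59.4 to 316 CPM) and *Col1a1* (691 CPM, against 15.5 to 57.0 CPM), both made by activated fibroblasts. *Dcn*, the most abundant fibroblast marker in the other libraries, was lowest in library 3, at 454 CPM against 560.5 to 935 CPM. Mitochondrially encoded genes took 9.07% of its counts, against 16.8% to 19.2%. All markers of these 3 lists were above 0 in it, and the atrial marker *Sln*, at 0 in library 3, was at most 0.0588 CPM in any library. In bulk tissue, fewer myocytes and less RNA per myocyte cannot be told apart. The study's reporting summary states that a WT sample was left out of its RNA sequencing analysis for poor RNA quality, without naming it. The deposited table keeps 5 libraries labelled WT, and the RNA quality of library 3 is not given in the sources used here.

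**Figure D2:**
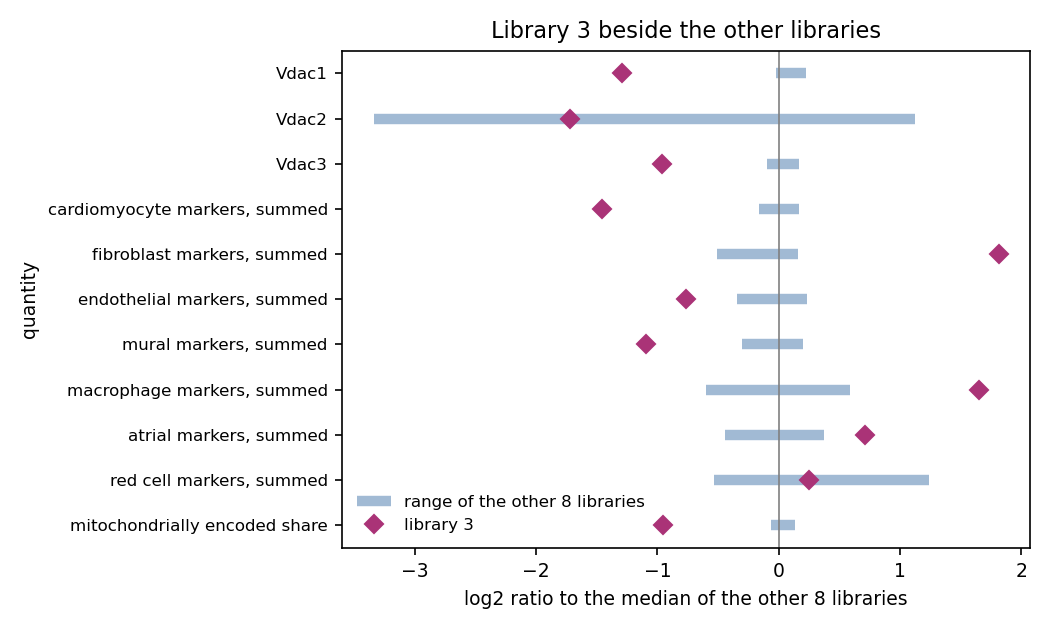
Library 3 (diamonds) and the range of the other 8 libraries (bars) for the porin transcripts, the summed markers of each cell type and the mitochondrially encoded share of counts, as the log2 ratio (x axis) to the median of the other 8 libraries. *Vdac1* and *Vdac3* lie at 40.9% and 51.3% of that median. Summed cardiomyocyte markers, a sum mostly of *Ttn* whose members fell to unlike degrees, lie at 36.3%. Summed fibroblast markers lie at 351%, a sum mostly of *Postn* and *Col1a1*, while *Dcn* was lowest in library 3.

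*Vdac1* was at a similar level where *Vdac2* was high and where it was low. It was at 695, 692, 709.9 and 812 CPM in libraries 2, 4, 6 and 8, which were high for *Vdac2*, and at 682, 682, 683 and 763 CPM in libraries 1, 5, 7 and 9, which were low. The ranges overlapped, and the median of the high libraries was 1.03 times that of the low ones, or 0.978 times with CPM on total counts. Taking each high library over each low one, the ratio ran from 0.906 to 1.19, whereas for *Vdac2* it ran from 17.1 to 22.1. Over all 16322 tested genes, 12.1% had values that did not overlap between these 4 and 4 libraries, and of the members 1 did so, *Vdac2*, which fixed the order. With TMM scaling, the absolute log2 ratio of medians was smaller than that of *Vdac1* in 18.3% of the tested genes.

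Within each label the picture for *Vdac1* was the same in size. Among the libraries labelled WT its medians were 693 CPM in the 2 high and 682 CPM in the 2 low libraries for *Vdac2*, a ratio of 1.02. The values did not overlap, which was so for 47.9% of all tested genes in this split of 2 against 2 libraries and therefore says little. Among those labelled KO the medians were 761 and 723 CPM, a ratio of 1.05 with overlapping values, where 37.8% of all tested genes did not overlap. Library 3, low for *Vdac2*, had the lowest *Vdac1* level of all, 283 CPM, beside its low cardiomyocyte markers. The size of that drop depends on the scaling. Unscaled, *Vdac1* took 10500 of 28489906 counts there and 18997 of 28686212 in library 2, the nearest in depth. The part of tissue composition in the *Vdac1* level of library 3 was not tested.

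*Vdac3* had close to the same level on both sides of the *Vdac2* order. In libraries 2, 4, 6 and 8 it was at 61.9, 59.5, 65.5 and 66.1 CPM, and in libraries 1, 5, 7 and 9 at 63.5, 63.4, 60.3 and 71.3 CPM. The ranges overlapped and the ratio of medians, high over low, was 1.004, or 0.9585 with CPM on total counts, with ratios of single libraries from 0.834 to 1.10. With TMM scaling, 2.31% of the tested genes had a smaller absolute log2 ratio of medians. That rank was not taken under other scalings, and leaving out single libraries moved the ratio from 0.975 to 1.03. Among the libraries labelled WT the medians were 60.7 CPM in the high and 63.5 CPM in the low libraries, a ratio of 0.956 without overlap, as for 47.9% of all tested genes, and among those labelled KO they were both 65.8 CPM with overlap. Library 3 was again the lowest, at 32.6 CPM, with an unscaled count of 1208 there and 1693 in library 2.

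The ratio of *Vdac1* to *Vdac3* overlapped between the high and low libraries. The count of *Vdac1* divided by that of *Vdac3*, a ratio that needs no library scaling and is compared here only between libraries since it is not corrected for length, was between 10.8 and 12.3 in the libraries high for *Vdac2* and between 10.7 and 11.3 in the low ones. Library 3 had the lowest ratio, 8.69. The count of *Vdac1* divided by that of *Vdac2* was between 1.85 and 1.93 in the high libraries and between 32.0 and 40.0 in the low ones, which restates the order by *Vdac2*.

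Between the labels themselves, 0 of the 3 porin genes were called by edgeR's quasi-likelihood test, against 0.0551% of all tested genes (9 of 16322), and 0 of the 3 had an unadjusted p under 0.05, where 997 tested genes did. DESeq2 also called 0 of the 3, where it called 63 of the 32807 genes it was given. *Vdac1* averaged 607 CPM (SD 181, n = 5) under the WT label and 742 CPM (SD 57.3, n = 4) under the KO label. Its log2 fold change was 0.29 (standard error 0.25, 95% interval -0.28 to 0.86, edgeR adjusted p = 0.71). *Vdac3* averaged 56.2 CPM (SD 13.3, n = 5) under WT and 65.8 CPM (SD 4.51, n = 4) under KO, and its log2 fold change was 0.23 (standard error 0.19, 95% interval -0.19 to 0.65, edgeR adjusted p = 0.70). *Vdac2* averaged 166 CPM (SD 183, n = 5) and 211 CPM (SD 222, n = 4), and its log2 fold change was 0.35 (standard error 1.19, 95% interval -2.34 to 3.03, edgeR adjusted p = 0.92).

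For *Vdac1* and *Vdac3*, library 3 set most of the difference and of the interval in that comparison. Without it the log2 fold change was 0.10 for *Vdac1* (95% interval -0.06 to 0.27) and 0.08 for *Vdac3* (95% interval -0.06 to 0.22). For *Vdac2* it was 0.12 with a wider interval, -3.38 to 3.61. Without library 3 the WT label averaged 688 CPM of *Vdac1* (SD 6.53, n = 4) and 62.1 CPM of *Vdac3* (SD 1.89, n = 4). Exact two-sided permutation tests of log2 CPM between the labels were run for 4 single values and not adjusted, and the smallest p they can give is 0.016. The exact p was 0.048 for *Vdac1*, 0.095 for *Vdac3*, 0.89 for *Vdac2* and 0.27 for the summed porin level. Without library 3, the exact p was 0.086 for *Vdac1* and 0.17 for *Vdac3*, where the smallest possible is 0.029.

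To compare the abundance of the 3 transcripts with each other, their levels were taken per kb of transcript. On the union of annotated exons (2620 bases for *Vdac1*, 4769 for *Vdac2* and 5420 for *Vdac3*), the summed porin level was 353, 351, 364 and 410.4 CPM per kb in libraries 2, 4, 6 and 8. It was 276, 277, 276 and 308 CPM per kb in libraries 1, 5, 7 and 9, and 126 CPM per kb in library 3. The high and low libraries did not overlap, and the median of the low libraries was 0.771 times that of the high ones. Since *Vdac2* ordered the libraries and is one of the 3 terms, this difference is a description and carries no test.

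*Vdac1* supplied most of the summed level in every library. In the libraries high for *Vdac2* its share was between 74.5% and 75.5%, that of *Vdac2* between 21.5% and 22.1% and that of *Vdac3* between 2.97% and 3.33%. In the low libraries the share of *Vdac1* was between 94.2% and 94.4%, that of *Vdac2* between 1.30% and 1.62% and that of *Vdac3* between 4.03% and 4.27%. In library 3 they were 85.5%, 9.70% and 4.76%. The exon union includes retained introns, of which *Vdac3* has 2 annotated transcripts, *Vdac2* 3 and *Vdac1* 1. On the longest coding transcript (2022, 1954 and 1423 bases), the median shares in the high libraries were 59.9% for *Vdac1*, 32.7% for *Vdac2* and 7.45% for *Vdac3*. In the low libraries they were 86.1%, 2.66% and 11.4%, and the median summed level there was 0.672 times that of the high ones. These shares may be too low for *Vdac3* and too high for *Vdac1* if reads shared with pseudogenes, described below, were not counted.

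**Figure D3:**
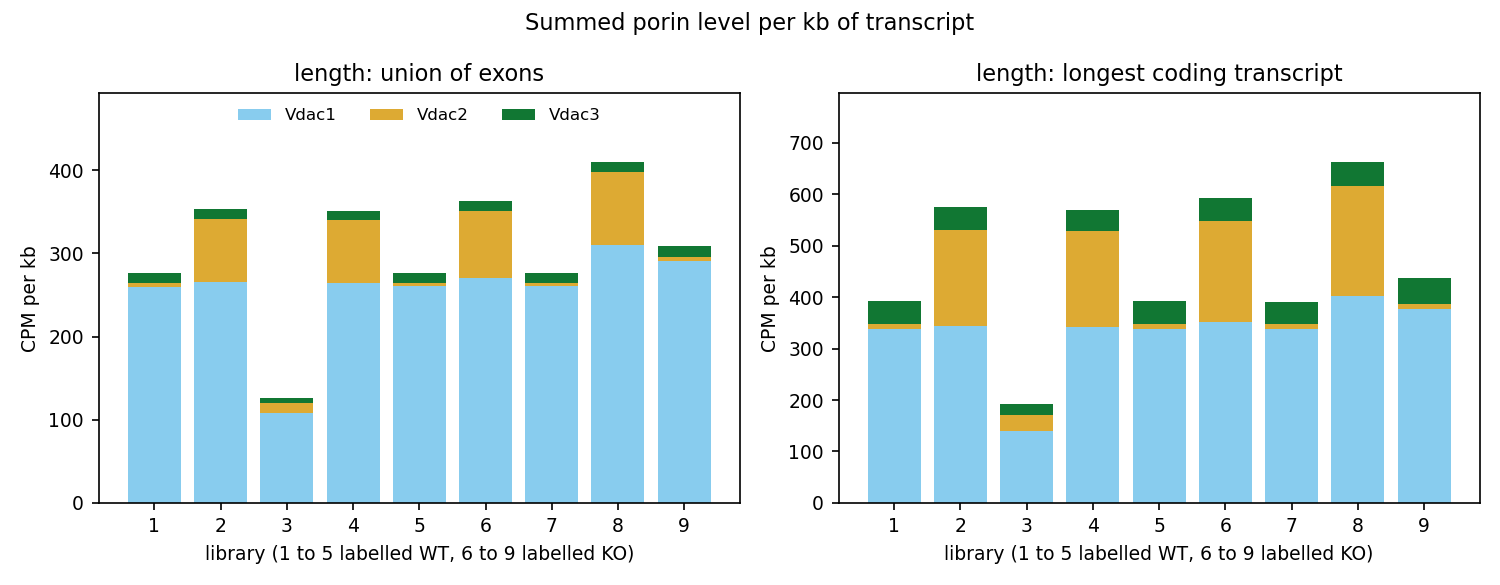
Summed porin level in each library as CPM per kb (y axis, from 0), stacked by gene, with the exon union (left) or the longest coding transcript (right) as the length; libraries 1 to 5 are labelled WT and 6 to 9 labelled KO. The *Vdac1* part is close to level outside library 3, from 260 to 310 CPM per kb on the exon union, and the *Vdac2* part sets the height of libraries 2, 4, 6 and 8 apart.

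The porins have many copies in the genome that could take or give reads. A search of the annotated transcripts found 22 genes, all annotated as pseudogenes, that align with a member over at least 200 bases, 15 with *Vdac1*, 2 with *Vdac2* and 5 with *Vdac3*, and 6 of them share at least 1 stretch of 50 bases with it. *Gm7832* (chromosome 5, 91760696 to 91761575), a processed pseudogene of *Vdac2*, shares 23.7% of its 50-base stretches with it. It was at 2.30, 1.79, 1.64 and 2.21 CPM in libraries 2, 4, 6 and 8 and at 0.0985, 0.214, 0.0264 and 0.0923 CPM in libraries 1, 5, 7 and 9. Its level thus moved with that of *Vdac2*, and reads of the parent gene and of the copy cannot be told apart in these counts.

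*Vdac3-ps1* (chromosome 13, 18030741 to 18031593) shares 79.8% of its 50-base stretches with *Vdac3* and was between 0.324 and 0.915 CPM. *Gm7591* (chromosome 14, 27210397 to 27211249) shares 31.6% with *Vdac3* and was between 0.118 and 0.525 CPM. *Vdac3* exceeded the former at least 69.3 times and the latter at least 121 times in every library, so reads counted on these copies were few beside those of the gene. How reads with several alignments were counted is not given in the sources used here. If they were left out, reads from the shared stretches would be missing from *Vdac3* as well, and its level and share would be understated.

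The end of *Vdac2* overlaps *Comtd1*, a gene for a catechol O-methyltransferase domain protein on the opposite strand of chromosome 14 (21845855 to 21848977), by 25 exonic bases. *Comtd1* was at 2.60, 2.32, 2.76 and 2.82 CPM in libraries 2, 4, 6 and 8, at 9.91, 7.87, 7.78 and 14.4 CPM in libraries 1, 5, 7 and 9, and at 19.1 CPM in library 3. It was higher in all libraries low for *Vdac2*, with no overlap, as for 12.1% of all tested genes, and was named here for its position. The strand setting of the counting is not given in the sources used here, and reads in the shared 25 bases would be uncertain without it.

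The other β-barrel proteins of the outer membrane were looked at beside the porins, since these share their fold. *Samm50*, the core of the machinery that inserts β-barrels including VDACs, was at 194, 189, 206 and 215 CPM in libraries 2, 4, 6 and 8 and at 179.6, 180.4, 176 and 209 CPM in libraries 1, 5, 7 and 9. *Tomm40*, the import pore, and its paralogue *Tomm40l* had ratios of medians of 1.15 and 1.11, high over low, with overlap. The values of all 3 overlapped, beside 12.1% of all tested genes that did not, and with 3 genes that count says little.

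Among accessory subunits of import and assembly, 10 of 11 genes were tested and 1 of the 10 did not overlap, a share near the 12.1% of all tested genes. That gene was *Tomm5*, a small subunit of the import complex, at 19.1 to 20.5 CPM in the libraries high for *Vdac2* and 21.2 to 25.0 CPM in the low ones. The 3 with the highest mean CPM, not corrected for length, *Tomm70a*, *Mtch2* and *Mtx2*, a receptor, an insertase and a metaxin, had ratios of medians of 1.01, 1.01 and 1.08. The median log2 ratio of the list was 0.0046, beside -0.0050 over all tested genes.

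Of 19 genes whose proteins are known to bind or act with VDACs, 3 did not overlap, a share near the 12.1% of all tested genes. *Atp2a2*, which encodes the calcium pump SERCA2, was at 12783, 12413, 13767 and 13264 CPM in libraries 2, 4, 6 and 8 and at 9624, 10818, 10799 and 8938 CPM in libraries 1, 5, 7 and 9. *Hk2*, the muscle hexokinase that docks on VDACs, had a ratio of medians of 1.31, high over low. *Tspo*, an outer membrane protein abundant in macrophages, was lower in the high libraries, at 18.1, 18.3, 17.8 and 20.01 CPM against 27.0, 24.9, 24.3 and 33.7 CPM, and reached 83.4 CPM in library 3. The other partners high in CPM, *Ryr2*, the calcium release channel, and *Slc25a4*, the adenine nucleotide translocator of muscle, overlapped, with ratios of 1.10 and 1.22. *Bak1*, the partner of VDAC2, was at 8.41 to 10.9 CPM in the high and 9.73 to 13.1 CPM in the low libraries.

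Of 12 other genes of the outer membrane, 2 did not overlap, a share near the 12.1% of all tested genes, and both were higher in the libraries high for *Vdac2*. *Acsl1*, which activates fatty acids, was at 1244 to 1418 CPM in the high and 951 to 1073 CPM in the low libraries. *Maob*, a monoamine oxidase, had a ratio of medians of 1.30. *Rhot1*, which tethers mitochondria to motors, and *Cisd1*, an iron-sulfur protein, had ratios of 1.08 and 1.06 with overlap. Between the labels, 0 of the 44 tested genes of these 4 lists were called by edgeR, where 0.0551% of all tested genes were, the lowest adjusted p being 0.68, and the list medians of the log2 fold change lay between 0.06 and 0.24.

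Some markers of other cells differed between the libraries high and low for *Vdac2*, while most of those in the fibroblast, cardiomyocyte, endothelial and mural lists overlapped. The counts below stand beside the 12.1% of all tested genes that did not overlap. Summed fibroblast markers were 764 to 1049 CPM in the libraries high for *Vdac2* and 1120 to 1212 CPM in the low ones, with 2 of 5 genes not overlapping. Summed macrophage markers were 154 to 231 CPM and 234 to 350 CPM, separated by 231.5 against 234.1 CPM at the nearest, with 3 of 5 not overlapping. Summed cardiomyocyte markers were 143850 to 158400 CPM and 125830 to 137500 CPM, with 1 of 6 not overlapping, *Ttn*. Endothelial and mural sums overlapped between the high and low libraries, at 482 to 722 CPM and 804 to 1142 CPM over the 8. Of these genes, 1 of 5 endothelial (*Pecam1*) and 0 of 4 mural did not overlap. *Pecam1* was separated by only 173.56 against 173.5 CPM at the nearest. Red cell sums overlapped as well, from 508 to 1731 CPM, with 0 of 3 genes not overlapping. Of the 2 atrial markers tested, 1 did not overlap, *Myl4*, at 1.59 to 1.86 CPM in the high and 1.87 to 2.43 CPM in the low libraries. The part of these differences in the values of the porins and their partners was not tested.

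**Figure D4:**
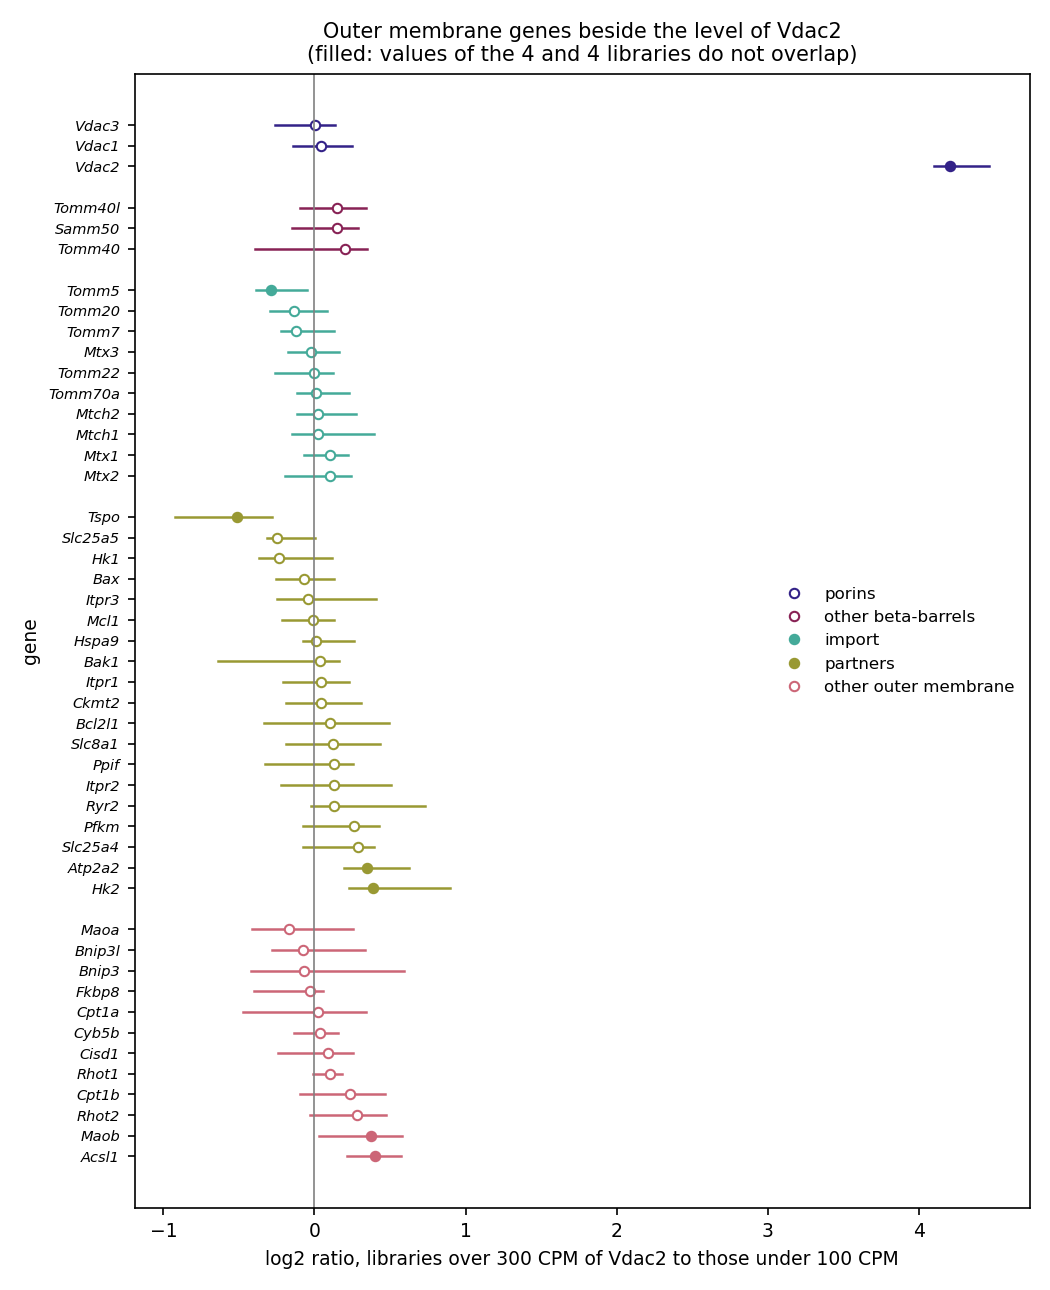
Log2 ratio (x axis) of the level in the 4 libraries over 300 CPM of *Vdac2* to that in the 4 under 100 CPM, for each tested gene of the porin, β-barrel, import, partner and other outer membrane lists (y axis); points are the ratio of medians and lines span the lowest to highest ratio of single libraries. *Vdac2*, which set the order, lies near 18.5-fold while *Vdac1* and *Vdac3* lie at 1.03-fold and 1.004-fold, and filled points mark genes whose values do not overlap.

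The genes whose pattern over the 9 libraries was most like that of each member were ranked by Pearson's correlation of log2 CPM among 8341 other genes of at least 10 CPM on average. For *Vdac1* they included *Pdha1* (r = 0.999), a subunit of pyruvate dehydrogenase, *0610012G03Rik*, *Ptgr2* and *Hdac11*. *Pdha1* stood at 491 CPM in library 3, while elsewhere it ranged from 1380 to 1750 CPM. For *Vdac3* they were *Chchd10* (r = 0.994), a protein of the mitochondrial intermembrane space, *Gtpbp2*, *Pkp4*, *Ndufa2* and *Amacr*. For *Vdac2* they were *Exoc2* (r = 0.952), an exocyst subunit, *Bdh1* (r = 0.947), the enzyme that interconverts ketone bodies, *P2ry2*, *Ube2n* and *Zfp709*.

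The likeness of *Vdac1* and *Vdac3* rested largely on library 3. Their correlation was 0.985 over 9 libraries, where *Vdac3* ranked 234 for *Vdac1*, and 0.687 over the 8 without library 3, where it ranked 1235. Of the 5 genes most like each member, 1 was shared between the rankings with and without library 3 for *Vdac1* (*Pdha1*), 2 for *Vdac2* (*Exoc2* and *Bdh1*) and 0 for *Vdac3*. All these correlations are descriptions over libraries that share their lanes and labels.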

How the data were processed

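Total RNA from the left ventricle of 9 mouse samples was depleted of ribosomal RNA and sequenced from stranded libraries with 50-base single-end reads. The authors deposited raw counts of reads per Ensembl gene; per the submitters' processing notes, STAR 2.7.2c and featureCounts 1.6.3 were used on GRCm38. The strand and multi-mapping settings are not given in the sources used here.

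From these counts, edgeR 4.0.16 (R 4.3.3) was run with filterByExpr, TMM normalization and robust quasi-likelihood F-tests of KO against WT as labelled, with Benjamini-Hochberg adjustment over 16322 genes. Intervals use the moderated degrees of freedom of that fit. Single values were compared by exact permutation tests (scipy 1.17.1). CPM are counts per 1000000 of the TMM-normalized library size. On unscaled total counts, 3 counts correspond to 0.0672 to 0.110 per 1000000, counting error only. Gene models are from GENCODE M21 (52489 of 52636 identifiers matched). Pseudogenes were searched with blastn 2.17.0, and sequences were aligned with Biopython 1.88. The script was tested on simulated data. No pair of libraries of 1 label had counts within sampling noise of each other (lowest chi-square per degree of freedom 6.72).

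Members and gene lists were chosen with earlier results of these data known. Named genes are the members, their pseudogenes and overlapping genes, the 3 of each list with the highest mean CPM, those not overlapping, and the 5 genes most like each member, some of which are not reported here. Genes named from the lists because they did not overlap, and *Bak1*, were chosen after their values were seen. Alternatives were other scalings (RLE, upper quartile), other filters, DESeq2 1.42.0, limma 3.58.1 quality weights, mitochondrially encoded genes left out, each library left out and other transcript lengths.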

Additional observations from a re-analysis of the deposited data

Results flagged for a closer look

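A sample was marked for a closer look where its gap to the nearest other sample of its label exceeded Dixon's 95% critical share of the label's range. Among 32 groups of values examined, 8 were marked, 7 of them for library 3 and 1 for library 9. Chance marks about 1 group in 20, and the marks of a single library are not independent.

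*Vdac1* in library 3 was 283 CPM, with 682 CPM as the nearest value among the libraries labelled WT, and *Vdac3* in library 3 was 32.6 CPM, with 59.5 CPM as the nearest. The same library was marked for its summed cardiomyocyte markers (51129 CPM), fibroblast markers (3811 CPM), mural markers (466 CPM) and macrophage markers (730 CPM), and for its mitochondrially encoded share of counts (9.07%). The members of the lists did not all move alike in library 3. *Dcn*, at 454 CPM, was lower there than in any other library, and the low mural sum was mostly *Rgs5* (276 CPM, against 733 to 1059 CPM), whereas *Pdgfrb* (103.5 CPM) and *Cspg4* (73.9 CPM) were highest there. *Vdac2* itself was not marked in library 3. Library 9, labelled KO, was marked for its summed mural markers, 804 CPM with 966 CPM as the nearest value.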

How the results depend on the processing

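Between the labels, none of the 3 porins had an adjusted p under 0.05 with all libraries or under any alternative of scaling, filter, tool or library. The estimates of *Vdac1* and *Vdac3* stayed above 0, higher under the KO label, throughout. Leaving out single libraries, the log2 fold change ran from 0.10 to 0.34 for *Vdac1*, from 0.08 to 0.28 for *Vdac3* and from -0.23 to 0.86 for *Vdac2*, which turned its sign without library 6 or 8. The number of genes called was 9, against 63 with DESeq2 (given 32807 genes with its own filtering only; edgeR with no low-count filter called 11 of them), 79 with limma's quality weights and 0 in edgeR with at least 10 counts in every library (875 at an unadjusted p under 0.05), and 5 to 62 with each library left out. The highest of these, 62, was without library 3, and the 5 were without library 1, 2 or 4. The cause was not tested. The ratio of medians, high over low for *Vdac2*, ran from 0.978 to 1.05 for *Vdac1* and from 0.956 to 1.03 for *Vdac3* with RLE scaling, total counts, mitochondrially encoded genes left out, library 3 added to the low libraries, each label alone or single libraries left out, and fell below 1 for *Vdac1* only with CPM on total counts. The median shares of the summed porin level in the high libraries were 75.1%, 21.8% and 3.18% for *Vdac1*, *Vdac2* and *Vdac3*. They were 59.9%, 32.7% and 7.45% on the longest coding transcript and 62.8%, 31.8% and 5.47% on the coding length. No paired analysis was possible because the labels share no replicate numbers.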

Other observations

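Without library 3, the genes most like *Vdac1* over the other 8 libraries included *Ppp1r14c* (r = 0.978), *Pdha1* (r = 0.975), *Smdt1*, the essential subunit of the calcium uniporter, and *Vps4a*. *Smdt1* was at 82.9 and 79.2 CPM in libraries 8 and 9, which also had the highest *Vdac1*, and between 64.5 and 72.4 CPM in the other 6. For *Vdac2* they were *Isoc2a* (r = 0.984), *Acss1* (r = 0.984), which activates acetate in mitochondria, *Dmd* (r = 0.982), which encodes dystrophin, *Exoc2* and *Bdh1*. *Dmd* was between 866 and 958 CPM in the libraries high for *Vdac2* and between 502 and 588 CPM in the low ones. Such values without overlap were found for 12.1% of all tested genes. *Smdt1* and *Dmd* were named for these correlations, so their values restate the ranking and carry no test. For *Vdac3* they were *Agfg2* (r = 0.980), *Ube2m*, *Rab1b*, *March8* and *Stip1*.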
